A study of Homo sapiens with 12 samples.

Results

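PRC1.1 is a Polycomb complex built on the proteins BCOR and PCGF1. Its subunits were followed here as 9 named genes: BCOR, BCORL1, KDM2B, PCGF1, RING1, RNF2, RYBP, YAF2 and SKP1. They were taken by name, and 8 of the 9 had a row among the 13310 genes of the deposited table. SKP1 was not analysed here. The 12 libraries were made from an established human embryonic stem cell line, H9, and all carry a wild-type (WT) genotype label. There were 4 groups of 3 libraries. Undifferentiated cells (UNDIF) were grown in mTeSR medium on Matrigel. Untreated neural cultures (NEUR) were taken through neural differentiation, first with the SMAD pathway inhibitors A83-10 and Dorsomorphine, as the labels spell them, and then in neural stem cell medium that held EGF and bFGF. Vehicle cultures (DMSO_NEUR) went through the same differentiation with the solvent DMSO, and inhibitor cultures (FT671_NEUR) with FT671, which inhibits the deubiquitinating enzyme USP7. The labels used here give no dose or duration for FT671, and the treatment field of the vehicle samples calls them undifferentiated while their titles call them neural. The titles were followed. Nothing states that replicates were separate cultures, so the p-values measure only the spread between these libraries, which may be technical.

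PRC1.1 places a single ubiquitin on histone H2A at CpG islands, the CpG-rich stretches that hold most promoters. KDM2B carries a CXXC zinc finger that binds unmethylated CpG and brings the complex there, and PCGF1 joins the catalytic RING1 or RNF2 to BCOR or its paralog BCORL1. RYBP or YAF2 stimulates the ubiquitin ligase, and SKP1 connects KDM2B to the rest of the complex. USP7 copurifies with PRC1.1, and the study's title links both to neuronal differentiation.

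Over the genes of the table the libraries held 15906471 to 17271155 reads, which is not their full sequencing depth. NEUR replicate 3 differed from its 2 replicates. Across 13110 genes with a transcript length, its deviation from its group followed that length with a Spearman rho of -0.574, where genes are not independent replicates. Results whose side of the significance threshold changes without that library are given with and without it. Other values include it unless stated. The neural label was checked against marker genes. PAX6, a transcription factor of neural progenitors, had 176 ± 20.8 normalized counts in undifferentiated cells, 3519 ± 180 in untreated neural and 3985 ± 250 in vehicle cultures (SD, n = 3), but 13.0 with FT671. Over the 7 of 8 neural progenitor markers with a row, the summed level per library ran from 22640 to 26665 in undifferentiated cells, from 42246 to 46640 in neural cultures without inhibitor and from 5726 to 6052 with it. Of these 7, SOX2 and FABP7 were lower in untreated neural than in undifferentiated cells, SOX2 at 1335 against 9263 and FABP7 at 16.4 against 506 counts. With FT671 SOX2 was at 13.0 and FABP7 at 0, and most of the FT671 sum came from NES, at 5852. Early neuron markers, 4 of 5 with a row, did not rise as a sum with differentiation. They ran from 389 to 415 in undifferentiated cells and from 392 to 408 in untreated neural cultures. With vehicle the sum was 398 to 462, and with FT671 37.1 to 42.1. DCX fell from 345 to 39.3 with differentiation, while TUBB3, STMN2 and SNAP25 rose. The cultures labelled FT671_NEUR are named below by their treatment. Markers of surface ectoderm, amnion or trophoblast were summed for the 7 of 9 with a row. The sum ran from 2325 to 2473 in undifferentiated cells and from 12147 to 14798 in untreated neural cultures. It ran from 9165 to 9983 with vehicle and from 45424 to 51375 with FT671. KRT18 and KRT7 made up most of the FT671 sum, at 26436 and 15355, and KRT18 most of the vehicle sum, at 8134. Each of the 7 was higher with FT671 than with vehicle. Mesenchyme markers, 4 of 5 with a row, summed to 6058 to 6933 in undifferentiated cells and 15482 to 17534 in untreated neural cultures. All 4 were higher in the untreated neural cultures. The sum was 10689 to 16273 with vehicle and 25716 to 28384 with FT671, mostly from COL1A1. Of the 4, COL1A1 was higher with FT671, at 25885 against 11263 counts with vehicle, and the other 3 were lower, COL3A1 at 21.1 against 200.04, ACTA2 at 778 against 1126 and PDGFRB at 538 against 1645. In bulk libraries a change in the share of cells of one type and a change in RNA per cell cannot be told apart, and the part that the markers' shift had in any result below was not tested.

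The unit below is the normalized count, which is the read count of a gene divided by 1 factor per library. Differences are log2 fold changes of the normalized count plus 1 with their standard error. They were tested with limma over all 13310 genes, and a gene was called at a Benjamini-Hochberg adjusted p under 0.05. Differentiation called 5 of the 8 measured subunits, 2 higher and 3 lower, where 82.0% of all genes were called, 40.4% higher and 41.6% lower. FT671 against vehicle called 6 of 8, 2 higher and 4 lower, where 79.8% of all genes were called, 40.2% higher and 39.7% lower. Both counts are near the background, so the results lie in which subunits moved and by how much. The median absolute log2 difference over the subunits was 0.31 for differentiation and 0.41 for FT671, against 0.62 and 0.60 over all genes. The vehicle itself called 0 of 8 subunits by limma, 0 at an unadjusted p under 0.05 and 0 by edgeR and DESeq2. It called 0.398% of all genes, 0.00751% higher and 0.391% lower. Over 13110 genes the differences of vehicle from untreated neural cultures followed transcript length, with a Spearman rho of 0.400. NEUR replicate 3, whose own deviation had a rho of -0.574, is part of that comparison. The rho without that library was not computed, so 0.400 cannot be read as an effect of the vehicle. With all libraries the rho was 0.00433 for differentiation and -0.0755 for FT671 against vehicle, and genes are not independent replicates. Groups that do not overlap, which are pointed out below for single subunits, occurred for 80.2% of all genes with differentiation, 84.7% with FT671 against vehicle and 90.2% with FT671 against undifferentiated cells.

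The subunits fell into 3 patterns across the 4 groups. KDM2B, RNF2 and RYBP fell with differentiation and were lower again with FT671 than with vehicle. YAF2 and RING1 rose with differentiation and were not called between FT671 and vehicle. BCOR, BCORL1 and PCGF1 were not called for differentiation, and with FT671 BCOR fell while BCORL1 and PCGF1 rose.

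**Figure D1:**
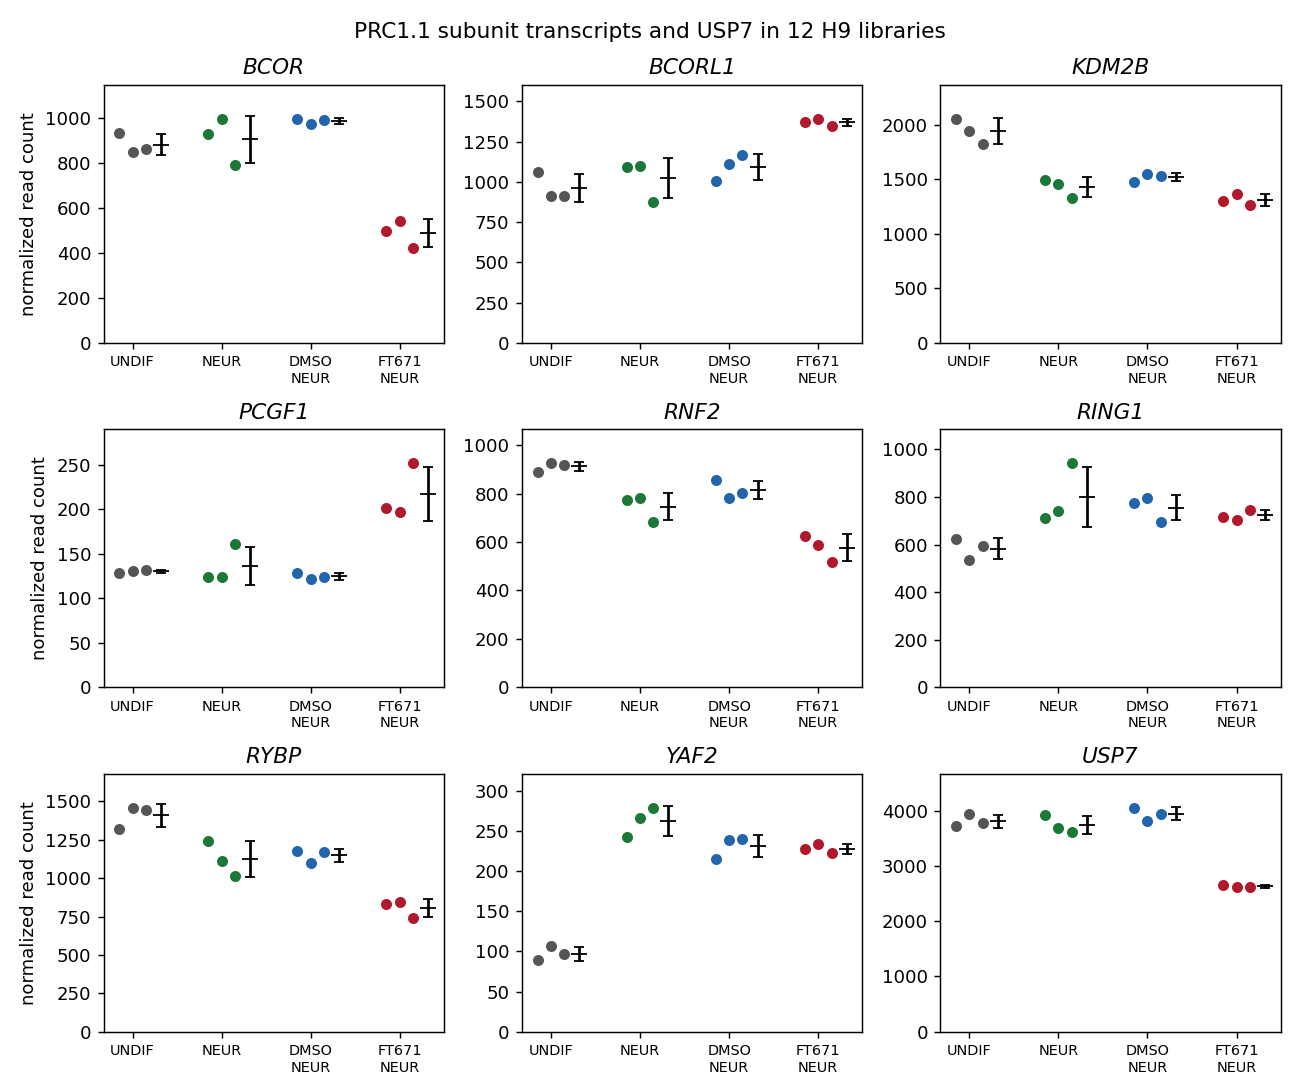
Normalized counts of the 8 measured PRC1.1 subunits and USP7 in each of the 12 libraries, by group, with the mean and SD of 3 libraries. BCOR lies between 420.4 and 544 in the FT671 libraries and at or above 790.0 in the other 9, and YAF2 lies at or below 106 in undifferentiated cells and at or above 215 elsewhere.

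Levels can be compared between genes only per length, here as normalized counts per kilobase of the principal transcript. In undifferentiated cells KDM2B led at 422 ± 25.3 per kilobase, ahead of RING1 at 333 ± 25.6, RNF2 at 253 ± 5.17 and RYBP at 195 ± 10.4. BCOR at 138 ± 7.23 and BCORL1 at 135 ± 12.0 did not differ beyond their spread, and PCGF1 at 72.6 ± 0.880 and YAF2 at 46.9 ± 4.18 were lowest. Every other pair of neighbours in that order was separated by more than its SDs.

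With vehicle RING1 stood first at 431 ± 29.6 per kilobase and KDM2B was second at 330.4 ± 8.47. RNF2 had 226 ± 10.0, and RYBP (159 ± 6.05), BCOR (155 ± 2.05) and BCORL1 (153 ± 11.4) lay within their spread. YAF2 had 111 ± 6.66 and PCGF1 was last at 69.5 ± 2.05. Untreated neural cultures gave RING1 455 ± 71.8, KDM2B 310.1 ± 19.6, RNF2 207 ± 15.4, RYBP 156 ± 16.0, BCORL1 143 ± 17.6, BCOR 142 ± 16.6, YAF2 126 ± 8.90 and PCGF1 75.9 ± 11.8 per kilobase, and from RYBP to YAF2 neighbours lay within their spread. With FT671 the lower part of the order was rearranged.

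In the FT671 cultures RING1 had 412 ± 11.9, KDM2B 285 ± 11.6 and BCORL1 192 ± 3.29 per kilobase. RNF2 had 159.8 ± 15.4, and PCGF1 (121 ± 17.0), RYBP (112 ± 7.86) and YAF2 (109.5 ± 2.83) lay within their spread. BCOR, level with BCORL1 in the other groups, was lowest of the 8 at 76.3 ± 9.77. The lengths come from 1 principal transcript per gene, and use of other transcripts was not tested.

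BCOR (ENSG00000183337) is the corepressor that dimerizes with PCGF1 and gives the complex its scaffold. Its normalized counts were 935, 849 and 863 in the undifferentiated libraries, 929.9, 998 and 790.0 in the untreated neural ones, and 999, 973 and 992 with vehicle. With FT671 they were 498, 544 and 420.4. The undifferentiated and untreated neural libraries overlapped, and the 3 FT671 libraries lay below all 9 others. BCOR changed by 0.03 ± 0.10 with differentiation (adjusted p = 0.761), an interval of 0.885-fold to 1.18-fold at 95% confidence. With FT671 it fell by 1.03 on the log2 scale, with an SE of 0.10 (adjusted p = 5.41e-08), to 0.491 of the vehicle level with an interval of 0.425 to 0.568. This was the largest called difference among the subunits in that comparison, and 70.1% of all genes had a smaller one. FT671 replicate 3 was lowest, and without it the difference was -0.92.

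BCORL1 (ENSG00000085185) is the paralog that can take the place of BCOR in the complex. Its counts were 1062, 915 and 913 in undifferentiated cells and 1093, 1096 and 878 in untreated neural cultures. They were 1005, 1113 and 1164 with vehicle and 1370.2, 1393 and 1346 with FT671. The FT671 libraries lay above all others and differed little among themselves, while the first 2 groups overlapped. BCORL1 was 0.33 ± 0.09 higher with FT671 than with vehicle (adjusted p = 0.00389), a fold of 1.25. The difference with differentiation was 0.08 ± 0.09 (adjusted p = 0.416) and was called without NEUR replicate 3, at 0.19 (adjusted p = 0.0342).

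PCGF1 (ENSG00000115289), the RING-finger protein that sets this complex apart from the other PRC1 complexes, had 128, 131 and 131 counts in undifferentiated cells. It had 123, 124 and 160.4 in untreated neural cultures and 128, 121 and 124 with vehicle. With FT671 it had 201, 197 and 252. Apart from NEUR replicate 3, the libraries without inhibitor spanned 121 to 131, and all 3 inhibitor libraries lay above every other library. PCGF1 rose by 0.79 ± 0.13 against vehicle (adjusted p = 4.64e-05), a fold of 1.72, and by 0.67 without FT671 replicate 3. Its change with differentiation was 0.05 ± 0.13 (adjusted p = 0.719), and -0.07 without NEUR replicate 3. BCOR and PCGF1, which bind each other directly, thus moved in opposite directions with the inhibitor.

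The promoter windows of these 3 genes are shown because their transcripts parted with the inhibitor, although PCGF1 joins BCOR or BCORL1 in the complex. They are RefSeq windows of GRCh38.p14, from 250 bases before to 50 bases after each annotated start, while the authors aligned to hg19. All 9 named subunits matched the table of windows, with 14 starts. Each CG dinucleotide is in capitals.
BCOR start 1, chrX:40177228-40177527, minus strand: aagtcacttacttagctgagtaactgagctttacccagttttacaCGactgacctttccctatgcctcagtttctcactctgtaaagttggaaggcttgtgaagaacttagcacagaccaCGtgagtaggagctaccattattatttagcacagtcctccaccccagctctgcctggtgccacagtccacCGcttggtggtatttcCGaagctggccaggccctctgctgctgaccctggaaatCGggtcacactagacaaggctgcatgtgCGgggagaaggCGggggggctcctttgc
BCOR start 2, chrX:40146584-40146883, minus strand: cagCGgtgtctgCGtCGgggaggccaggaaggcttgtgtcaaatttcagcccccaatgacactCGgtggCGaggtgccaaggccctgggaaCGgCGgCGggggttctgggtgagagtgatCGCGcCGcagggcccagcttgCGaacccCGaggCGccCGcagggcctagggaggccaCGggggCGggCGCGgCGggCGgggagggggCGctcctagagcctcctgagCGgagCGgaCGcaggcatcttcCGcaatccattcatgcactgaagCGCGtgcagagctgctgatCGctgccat
BCORL1 start 1, chrX:129980729-129981028, plus strand: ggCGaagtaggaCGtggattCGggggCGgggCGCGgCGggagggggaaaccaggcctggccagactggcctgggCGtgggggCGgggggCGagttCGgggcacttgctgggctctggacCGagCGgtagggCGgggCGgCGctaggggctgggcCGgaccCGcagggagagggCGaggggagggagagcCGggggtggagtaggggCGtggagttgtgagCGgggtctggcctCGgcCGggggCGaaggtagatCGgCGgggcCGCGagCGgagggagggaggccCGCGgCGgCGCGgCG
BCORL1 start 2, chrX:129984136-129984435, plus strand: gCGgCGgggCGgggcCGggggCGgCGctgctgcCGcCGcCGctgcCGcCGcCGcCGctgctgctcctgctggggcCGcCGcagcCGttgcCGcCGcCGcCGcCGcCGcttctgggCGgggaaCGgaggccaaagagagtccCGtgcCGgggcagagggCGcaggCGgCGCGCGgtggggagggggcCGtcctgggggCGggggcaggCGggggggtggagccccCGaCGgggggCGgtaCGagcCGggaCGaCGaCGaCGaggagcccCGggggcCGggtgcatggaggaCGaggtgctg
PCGF1, chr2:74507646-74507945, minus strand: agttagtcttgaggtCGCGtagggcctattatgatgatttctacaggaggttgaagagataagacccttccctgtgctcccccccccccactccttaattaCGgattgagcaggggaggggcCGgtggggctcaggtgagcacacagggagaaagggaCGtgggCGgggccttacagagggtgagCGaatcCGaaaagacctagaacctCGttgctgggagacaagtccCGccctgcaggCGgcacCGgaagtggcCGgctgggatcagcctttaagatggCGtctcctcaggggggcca

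The BCOR windows held 7 and 29 CG, the BCORL1 windows 36 and 46, and the PCGF1 window 14, where the median over 35116 promoters was 14 and the quartiles were 4 and 28. Of all promoters, 36.8% had fewer CG than the first BCOR window and 97.1% fewer than the second BCORL1 window. Which start was used in these cells cannot be read from gene totals. Motifs were searched on both strands as CCGGAAGT (an ETS site), CACGTG (an E-box) and a palindromic NRF1 motif. The NRF1 motif occurred in no window of a subunit and in 1.24% of all promoters. CCGGAAGT occurred in the PCGF1 window and in 4.14% of all promoters. CACGTG occurred in the first BCOR window and in 7.26% of all promoters. These are letter matches, not sites shown to be bound.

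KDM2B (ENSG00000089094) is the CpG-binding subunit that recruits the complex, and also a histone demethylase. It had 2055, 1942 and 1823 counts in undifferentiated cells and 1494, 1458 and 1323 in untreated neural cultures, groups that did not overlap. With vehicle it had 1474, 1549 and 1531, and with FT671 1302, 1368 and 1262. The inhibitor libraries lay below every vehicle library but overlapped the untreated neural ones through NEUR replicate 3. KDM2B fell by 0.45 with differentiation, with an SE of 0.07 (adjusted p = 1.78e-05), to 0.735 of the undifferentiated level. With FT671 it fell by 0.21, with an SE of 0.07 (adjusted p = 0.0104), to 0.863 of the vehicle level, the smallest called difference among the subunits.

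RNF2 (ENSG00000121481), also called RING1B, and RING1 (ENSG00000204227) are alternative catalytic subunits of all PRC1 complexes. RNF2 had 891, 926 and 919 counts in undifferentiated cells, 773, 783 and 682 in untreated neural cultures, 854, 784 and 804 with vehicle and 625, 587 and 516 with FT671. Every undifferentiated library lay above every neural one, and the inhibitor libraries lay lowest. RNF2 fell by 0.29 with differentiation, with an SE of 0.08 (adjusted p = 0.00437), and fell by 0.50 with FT671, with an SE of 0.08 (adjusted p = 3.79e-05). All 3 vehicle libraries lay above all 3 untreated neural ones, but the difference was 0.13 ± 0.08 (adjusted p = 0.695), and groups did not overlap for 12.3% of all genes in that comparison. RING1 had 623, 534 and 592 counts in undifferentiated cells, and 712, 739.7 and 942 in untreated neural cultures. It had 773, 794 and 696 with vehicle and 716, 705 and 745 with FT671. The undifferentiated libraries were lowest and the other 3 groups overlapped, with NEUR replicate 3 above all. RING1 rose by 0.44 ± 0.10 with differentiation (adjusted p = 6.76e-04), and by 0.32 without that library. FT671 against vehicle gave -0.06 ± 0.10 (adjusted p = 0.584), an interval of 0.828-fold to 1.11-fold, so a change of the size seen in RNF2, to 0.706 of the vehicle level, lay outside the interval.

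RYBP (ENSG00000163602) and YAF2 (ENSG00000015153) are paralogs that stimulate the ligase and read ubiquitinated H2A, and they are alternative subunits of the same complexes. RYBP had 1323, 1460.2 and 1444 counts in undifferentiated cells and 1244, 1114 and 1013 in untreated neural cultures. It had 1178, 1098 and 1169.6 with vehicle and 829.7, 845 and 740.0 with FT671, a descent in 2 steps with no overlap at either. RYBP fell by 0.33 with differentiation, with an SE of 0.08 (adjusted p = 0.00161), and fell by 0.51 with FT671, with an SE of 0.08 (adjusted p = 2.52e-05). YAF2 went the other way at the first step. It had 89.0, 106 and 96.7 counts in undifferentiated cells, 243, 266 and 279 in untreated neural cultures, 215, 238 and 239 with vehicle, and 227, 234 and 222 with FT671. The undifferentiated libraries lay far below the rest, and the vehicle and inhibitor libraries overlapped. All 3 vehicle libraries lay below all 3 untreated neural ones, with a difference of -0.18 ± 0.11 (adjusted p = 0.678). YAF2 rose by 1.42 ± 0.11 with differentiation (adjusted p = 2.97e-09), a fold of 2.68, and 78.8% of all genes had a smaller difference. FT671 against vehicle gave -0.02 ± 0.11 (adjusted p = 0.871), an interval of 0.840-fold to 1.16-fold.

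The promoter windows of RYBP and YAF2 are shown because these interchangeable paralogs moved apart with differentiation. Capitals again mark CG.
RYBP, chr3:72446574-72446873, minus strand: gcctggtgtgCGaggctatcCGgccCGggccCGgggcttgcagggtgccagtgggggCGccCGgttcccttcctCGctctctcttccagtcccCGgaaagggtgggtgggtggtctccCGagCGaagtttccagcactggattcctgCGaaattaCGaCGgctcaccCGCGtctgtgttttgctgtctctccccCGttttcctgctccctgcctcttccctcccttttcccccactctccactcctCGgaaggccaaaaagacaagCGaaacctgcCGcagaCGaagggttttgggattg
YAF2, chr12:42238199-42238498, minus strand: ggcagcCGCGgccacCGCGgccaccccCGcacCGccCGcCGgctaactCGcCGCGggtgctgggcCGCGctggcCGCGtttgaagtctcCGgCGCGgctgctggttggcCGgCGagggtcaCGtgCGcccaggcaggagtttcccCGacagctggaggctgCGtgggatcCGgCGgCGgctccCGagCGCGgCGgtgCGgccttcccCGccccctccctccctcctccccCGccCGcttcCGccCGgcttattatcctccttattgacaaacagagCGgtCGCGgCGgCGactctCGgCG

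The RYBP window held 20 CG and the YAF2 window 44, and 58.8% and 95.8% of all promoters had fewer. CACGTG occurred in the YAF2 window and not in that of RYBP. RING1 and RNF2 had 41 CG each.

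**Figure D2:**
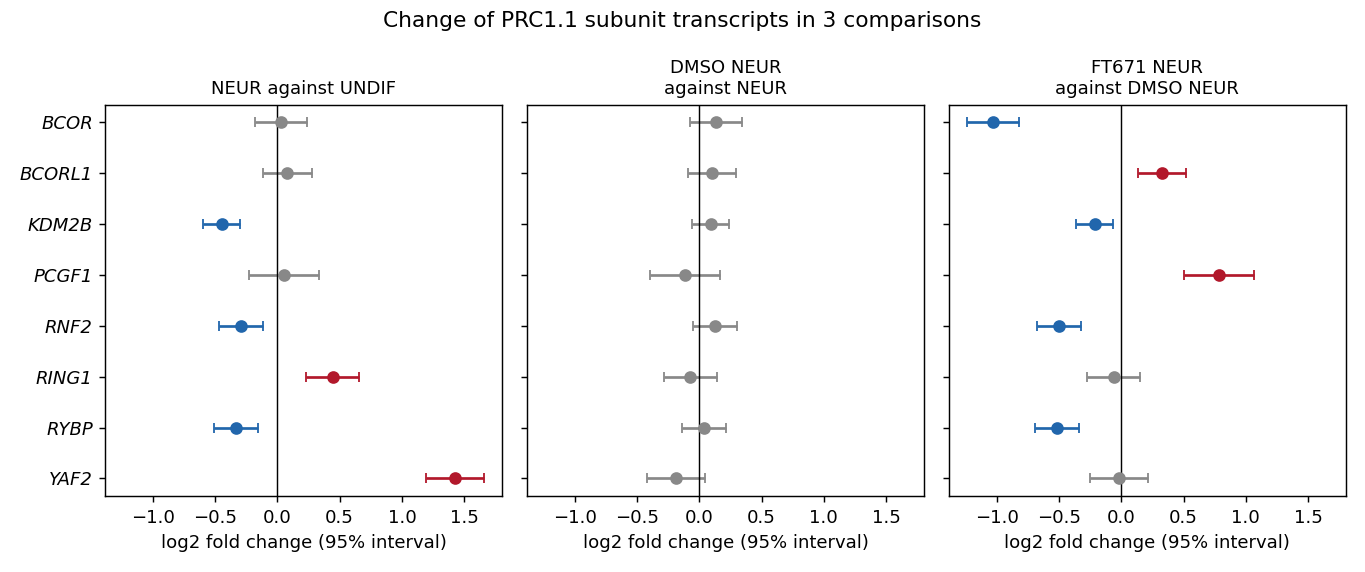
Log2 fold change of each of the 8 measured subunits from limma with its 95% interval, for differentiation (NEUR against UNDIF), vehicle against untreated neural cultures and FT671 against vehicle, with called rises in red, called falls in blue and the rest in grey. YAF2 lies farthest to the right for differentiation at 1.42, BCOR farthest to the left for FT671 at -1.03, and every subunit's interval for the vehicle holds 0.

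Set against undifferentiated cells, the FT671 cultures differed in all 8 measured subunits, where 88.0% of all genes were called. BCOR was at -0.86, KDM2B at -0.56, RNF2 at -0.67 and RYBP at -0.81 on the log2 scale. BCORL1 was at 0.51, PCGF1 at 0.72, RING1 at 0.31 and YAF2 at 1.22. The YAF2 rise was thus present with the inhibitor, at 227 ± 5.87 counts against 97.3 ± 8.69 in undifferentiated cells (adjusted p = 1.32e-08). For RING1 the call rested on the scaling. It had an adjusted p of 0.00819, and with library totals in place of the authors' factors the difference was 0.04 (adjusted p = 0.720).

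For differentiation the authors' deposited table gives an FDR of its own. In the authors' deposited table it was 2.82e-25 for YAF2, 9.53e-09 for KDM2B, 6.43e-05 for RING1, 4.35e-04 for RYBP and 0.00196 for RNF2. It was 0.737 for BCOR, 0.431 for BCORL1 and 0.717 for PCGF1 in the authors' deposited table, so the same 5 subunits were under 0.05 as in limma. It uses the same libraries and is not independent of them.

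Within a library, the ratio of the counts of paired paralogs needs no scaling between libraries. Here untreated and vehicle neural cultures were pooled as 6 libraries, and 6 exact two-sided permutation tests were run with Benjamini-Hochberg adjustment over them. With 3 libraries against 6 the smallest p is 0.0238. Taken alone, a difference at that p would not pass the adjustment over 6 tests, so the passing differences depend on one another. The ratios are of counts and are not corrected for length, so their change is read and not their level.

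The ratio of BCOR to BCORL1 was 0.918 ± 0.0336 in undifferentiated cells, 0.887 ± 0.0321 in untreated neural and 0.907 ± 0.0763 in vehicle cultures, and 0.355 ± 0.0397 with FT671 (SD, n = 3). The log2 difference of FT671 from the neural cultures without inhibitor was -1.34 (exact permutation p = 0.0238, adjusted p = 0.0476), lower in 3 of 3 libraries. Differentiation changed it by -0.03 (exact permutation p = 0.524, adjusted p = 0.524). In these libraries the balance of the scaffold paralogs moved with the inhibitor and not detectably with differentiation. The ratio rests on the same BCOR and BCORL1 counts as above, so it is not separate support. With 3 libraries against 3 the adjusted p was 0.12 by the exact permutation test.

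The other 2 pairs moved with differentiation, and their ratios too rest on the counts given above and are not separate support. The ratio of RNF2 to RING1 was 1.57 ± 0.152 in undifferentiated cells, 0.956 ± 0.202 in untreated neural and 1.08 ± 0.0868 in vehicle cultures, a log2 difference of -0.64 (exact permutation p = 0.0238, adjusted p = 0.0476). The ratio of YAF2 to RYBP was 0.0690 ± 0.00330, 0.236 ± 0.0402 and 0.201 ± 0.0175 in the same groups, a log2 difference of 1.64 (exact permutation p = 0.0238, adjusted p = 0.0476). With FT671 they were 0.799 ± 0.0948 and 0.283 ± 0.0145. Neither inhibitor difference passed. For RNF2 to RING1 it was -0.34 (exact permutation p = 0.0952, adjusted p = 0.114), and for YAF2 to RYBP it was 0.38 (exact permutation p = 0.0476, adjusted p = 0.0714). Both passed without NEUR replicate 3, at -0.44 and 0.45, each with an adjusted p of 0.0429 by the exact permutation test. Leaving out an undifferentiated or FT671 library instead leaves too few permutations for the ratio tests of its group to reach 0.05. The passing differences of that group then fail whatever their size.

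**Figure D3:**
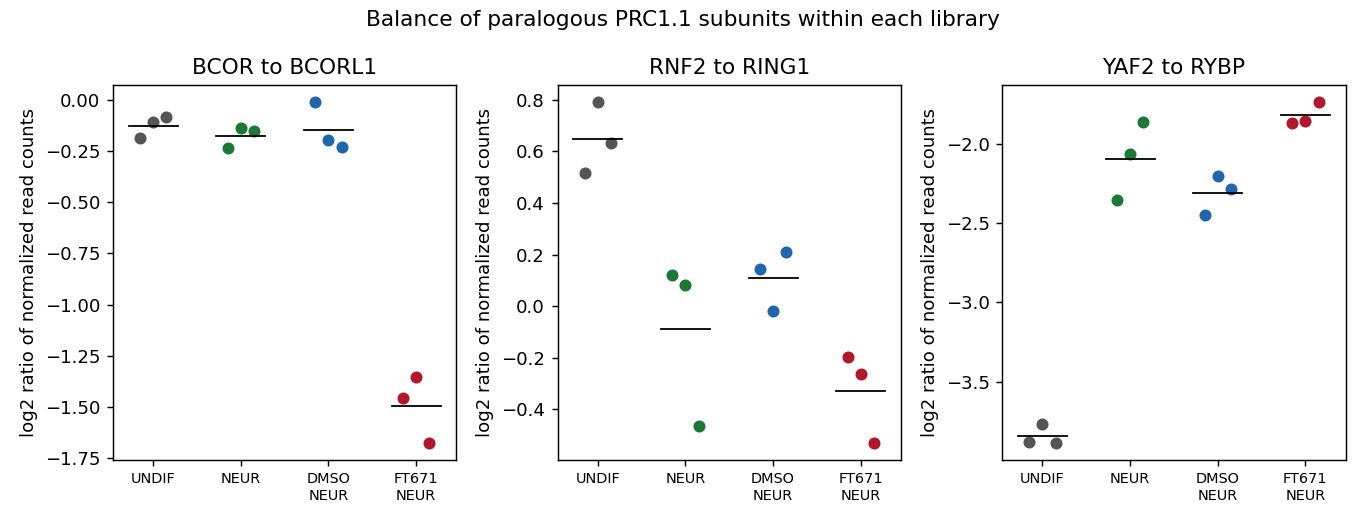
Log2 ratio of normalized counts within each library (points) and its mean per group (lines) for BCOR to BCORL1, RNF2 to RING1 and YAF2 to RYBP. As linear ratios, the 3 FT671 libraries lie at 0.312 to 0.390 for BCOR to BCORL1, below the 9 others at 0.851 to 0.994, and the undifferentiated libraries lie apart for the other pairs.

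USP7 (ENSG00000187555), the target of FT671, is a deubiquitinating enzyme that associates with PRC1.1. Its transcript was measured, not its activity, so it does not show whether the inhibitor acted. It had 3714, 3932 and 3770.5 counts in undifferentiated cells, 3928, 3679 and 3617 in untreated neural cultures, 4054, 3820.1 and 3946 with vehicle, and 2655, 2611 and 2626 with FT671. The 3 inhibitor libraries lay below all others and close together. USP7 fell by 0.58 with FT671, with an SE of 0.06 (adjusted p = 9.51e-08), to 0.668 of the vehicle level. The difference with differentiation was -0.03 ± 0.06 (adjusted p = 0.698).

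Genes around PRC1.1 were taken as lists. Each is given as the number called higher and lower of those measured, with the median log2 difference. Over all genes that median was -0.03 for differentiation and 0.01 for FT671. Of all genes, 40.4% were called higher and 41.6% lower with differentiation, and 40.2% and 39.7% with FT671 against vehicle. A list count near these shares is no result about the list. Vehicle against untreated neural cultures called 0 genes of any of these lists by limma. Of 5 other PCGF proteins, which define the other PRC1 complexes, PCGF2 had no row. Of the 4 measured, 3 rose and 0 fell with differentiation (median 0.90). With FT671 0 rose and 3 fell (median -0.60), or 4 with library totals or TMM factors. PCGF5, of the PRC1.5 complex, went from 213 ± 23.9 to 1254 ± 98.0 counts with differentiation, and from 1375 ± 42.6 with vehicle to 836 ± 25.4 with FT671. BMI1, a PCGF protein of canonical PRC1, went from 114 ± 18.8 to 314 ± 35.5, and from 338 ± 31.5 to 153 ± 4.36. PCGF1 differed from these PCGF genes in direction under the inhibitor.

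The CBX, PHC and SCM-type subunits of canonical PRC1 gave 6 higher and 4 lower of 11 with differentiation (median 0.48), and 7 higher and 4 lower with FT671 (median 0.52). With differentiation the chromodomain gene CBX2 fell by 2.38 on the log2 scale and SCML2 fell by 2.30, while PHC2 rose by 2.16. With FT671 PHC2 fell by 1.64 and SCML2 fell by 2.13, and CBX7 rose by 0.93. PHC2 and SCML2 are thus called in both comparisons. PHC2 stood at 1076 ± 49.8 counts in undifferentiated cells, 5072 ± 32.5 with vehicle and 1627 ± 64.4 with FT671.

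Subunits of the other variant PRC1 complexes gave 6 higher and 4 lower of 16 with differentiation (median -0.00), and 2 higher and 10 lower with FT671 (median -0.49). With library totals these counts were 4 and 7, and 0 and 12, so the 2 rises with FT671 were lost. AUTS2, a neurodevelopmental gene of PRC1.3 and PRC1.5, fell by 1.69 with differentiation and fell by 1.95 with FT671 against vehicle, at 4560.1 ± 504, 1408 ± 76.1, 1567 ± 99.3 and 405 ± 31.8 counts in undifferentiated, untreated neural, vehicle and FT671 cultures. With differentiation MGA of PRC1.6 fell by 0.49, and FBRS rose by 1.37 and MAX, the partner of MYC and MGA, by 0.81. With FT671 the deacetylase gene HDAC2 fell by 1.01, and MAX rose by 0.32 and TFDP2 by 0.26. The TFDP2 call was lost as well without vehicle replicate 1 (0.22) or FT671 replicate 1 (0.20).

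The enzymes that remove ubiquitin from H2A, with their cofactors, act against PRC1. Of 9 measured, 6 rose and 2 fell with differentiation (median 0.32), and 2 rose and 5 fell with FT671 (median -0.31). With library totals or TMM factors the counts with FT671 were 0 and 6, so neither rise was called. With differentiation FOXK1 rose by 1.87 and ASXL3, a cofactor of BAP1, by 1.65, and USP21 fell by 0.48 and MYSM1 fell by 0.26. The MYSM1 call was lost without NEUR replicate 3 (-0.14) or UNDIF replicate 2 (-0.19). With FT671 ASXL3 fell by 1.57 and ASXL1 fell by 0.65, and MYSM1 rose by 0.24 and FOXK2 by 0.17. These 2 calls were also lost when single libraries were left out, MYSM1 without vehicle replicate 1 (0.21) or 3 (0.24) or FT671 replicate 1 (0.22), and FOXK2 without vehicle replicate 2 (0.15) or 3 (0.17) or FT671 replicate 2 (0.14) or 3 (0.18).

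PRC2 places methyl groups on histone H3 and works beside PRC1. Of 12 measured subunits, 3 rose and 7 fell with differentiation (median -0.25), and 2 rose and 9 fell with FT671 (median -0.68). With library totals the counts were 2 and 8, and 1 and 9. The catalytic EZH2 had 1107 ± 37.3 counts in undifferentiated cells, 1525 ± 26.9 in untreated neural, 1613 ± 99.0 in vehicle and 425 ± 38.9 in FT671 cultures, and it fell by 1.93 with the inhibitor while its paralog EZH1 rose by 0.67. PHF19 rose by 1.52 with differentiation and fell by 1.78 with FT671. JARID2, which recognises ubiquitinated H2A, fell by 1.42 with differentiation and MTF2 fell by 0.78, and with FT671 PHF1 rose by 0.30, a call lost with library totals (0.18) and without FT671 replicate 3 (0.21).

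KDM2B is an F-box protein, and SKP1 also serves the SCF ubiquitin ligases. Of 18 measured SCF partners, 8 rose and 7 fell with differentiation (median 0.09), and 3 rose and 7 fell with FT671 (median -0.08). With library totals the counts were 4 and 8, and 1 and 11. FBXO5, the inhibitor of the anaphase-promoting complex also called EMI1, fell by 0.47 with differentiation and fell by 2.71 with FT671, from 754 ± 59.0 to 116 ± 19.4 counts, and CCNF, a cyclin with an F-box, fell by 1.71 with FT671. FBXL5 rose by 1.00 with differentiation. FBXL20 fell by 0.72 with differentiation and rose by 0.49 with FT671, where SKP2 rose by 0.24, a call lost with library totals (0.11).

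The CXXC proteins share the CpG-binding finger of KDM2B. Of 6 measured, 1 rose and 3 fell with differentiation (median -0.23), and 1 rose and 4 fell with FT671 (median -0.80). KDM2A, the closest paralog of KDM2B, was the gene that rose, by 0.21 with differentiation, a call lost with library totals (0.07) and without NEUR replicate 2 (0.15), and by 0.40 with FT671, at 2195 ± 56.9, 2541 ± 239, 2680.2 ± 19.5 and 3533 ± 37.1 counts in undifferentiated, untreated neural, vehicle and FT671 cultures. KDM2B fell in both comparisons. TET1, which oxidises methylated cytosine, fell by 2.90 with differentiation and TET3 fell by 0.47, and FBXL19 fell by 1.31 and DNMT1 fell by 0.94 with FT671.

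A list of 4 genes linked to BCOR gave 1 higher and 1 lower with differentiation (median 0.12). With FT671 it gave 2 higher and 2 lower (median -0.07). BCL6, the repressor through which BCOR was first named, rose by 0.42 with FT671, from 312 ± 36.3 to 421 ± 71.7 counts. That call was lost with library totals (0.30) and without vehicle replicate 1 (0.32) or FT671 replicate 3 (0.29). TFAP2A fell by 1.32 with differentiation, from 69.7 ± 4.23 to 27.8 ± 6.67 counts. With FT671 it rose by 6.10, from 17.8 ± 1.97 to 1282 ± 58.3, and it is also 1 of the surface ectoderm markers summed above. Whether TFAP2A acts with BCOR in these cells was not tested. MLLT3 fell by 2.16 with FT671, and MLLT1 fell by 0.56. With differentiation MLLT1 rose by 0.23, a call lost with library totals (0.09), with only the groups compared, and without UNDIF replicate 2 (0.13) or 3 (0.22) or NEUR replicate 1 (0.24) or 2 (0.18).

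**Figure D4:**
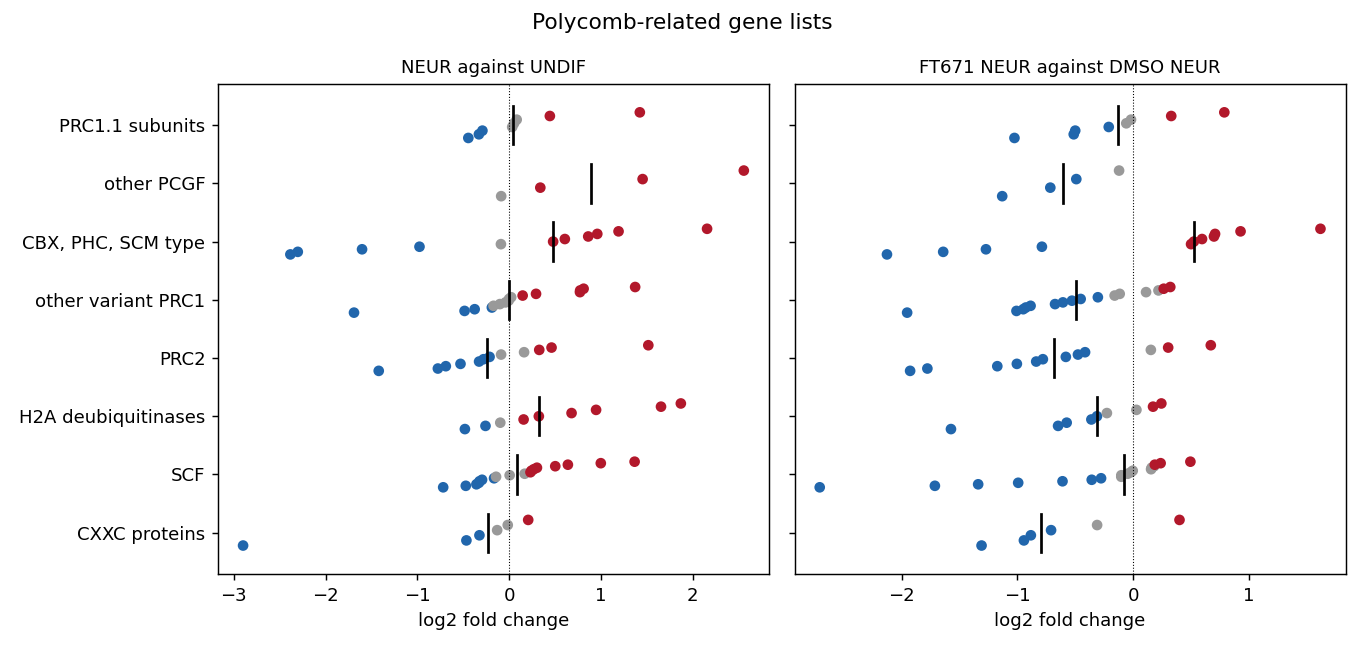
Log2 fold change of each measured gene (points, red where called higher, blue where called lower, grey otherwise) and the median (black line) of the PRC1.1 subunits and 7 related lists, for differentiation and for FT671 against vehicle. PRC2 shows 9 lower of 12 with FT671, and the PRC1.1 subunits show 2 higher and 4 lower of 8.

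The genes whose levels across the 12 libraries were most like those of 3 subunits were found by Pearson r on the log2 scale among 10735 genes with a symbol and a mean of at least 100 normalized counts. The 12 points fall into 4 groups, so r mostly reflects the group means, and no p is given. For BCOR they were SETBP1 (r = 0.994), PRMT6 (0.993) and SH3BP4 (0.988). SETBP1 had a mean of 577 counts with vehicle and 164 with FT671, and PRMT6 had 1119 and 629. For KDM2B they were PHLPP1 (0.986), AMMECR1 (0.985) and ZNF281 (0.985), and PHLPP1 had 1189 counts in undifferentiated cells, 631 in untreated neural cultures and 556 with FT671. For PCGF1 they were TPRA1 (0.979), MPC2 (0.972) and QPCTL (0.970), and MPC2 had 431 counts with vehicle and 902 with FT671.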

How the data were processed

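Polyadenylated RNA of 12 H9 libraries was sequenced. Per the submitters' processing notes, STAR, HTSeq and DESeq2 were run under R 4.3.1 on hg19, with no roles, settings or annotation given. The deposited signal is the authors' normalized count per gene plus 1, and 1 deposited column holds p-values as an FDR that compares undifferentiated with neural cells, by a test not given in the sources used here. After subtraction of 1, 100% of values gave whole reads within 0.001, and 15906471 to 17271155 reads per library were recovered. No gene had a mean under 12.2, so low genes are absent. Gene totals do not show strand or how reads were split between paralogs. Of 47 columns, 32 were not used. A sheet title speaks of a USP7 heterozygote, but the labels of all 12 libraries read WT and were followed.

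The plan named limma for normalized values, with edgeR only if the columns proved to be raw counts, and it was followed. The fit was limma 3.58.1 in R 4.3.3 (variance trend, 4 group means, 12 libraries) on log2 of the normalized count plus 1, with adjustment over 13310 genes. It was checked on simulated data with few changed genes and known library factors. Most genes were called here, so that check does not cover the dependence on scaling. Alternatives were library totals, TMM factors, recomputed median-ratio factors, edgeR 4.0.16 and DESeq2 1.42.0 on recovered reads, other pseudocounts, a filter at a mean of 100, only the groups compared, a replicate block, and each library left out. Same-numbered libraries did not deviate together, so numbers were not treated as pairs. Transcript lengths are those of GENCODE 29 principal transcripts. The gene lists were written by hand. From each, up to 2 called genes per direction with the largest change are named. Some genes that this rule takes are not reported here. The subunits, lists and naming rule were chosen with earlier results of these data known.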

Additional observations from a re-analysis of the deposited data

How the results depend on the processing

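Of 828 values of single subunits and USP7 under the alternatives, 824 kept their side of the threshold. The exceptions were BCORL1 and RING1 as given above, the first also without NEUR replicate 3 and FT671 replicate 3 together (0.19, adjusted p = 0.0402, chosen after seeing the data), and USP7, which was lower with differentiation under library totals (-0.16, adjusted p = 0.0157). Library totals moved the median of all genes by -0.139 for differentiation and -0.121 for FT671 on the log2 scale. They gave 4455 higher and 6281 lower calls against 5376 and 5541 for differentiation, and 4583 and 5893 against 5347 and 5280 for FT671. The count of all genes called between vehicle and untreated neural cultures was 53, and it was 111 by DESeq2 and 0 with only the 2 groups compared (729 at an unadjusted p under 0.05, limma), and 24 to 56 with 1 library left out.

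Subunits called with 1 library left out numbered 5 to 6 for differentiation and 6 for FT671. All genes called then ran from 10337 to 10917 for differentiation, from 10076 to 11014 for FT671 and from 11375 to 11977 for FT671 against undifferentiated cells. With the replicate block 10817, 10527, 41 and 11648 genes were called for differentiation, FT671, vehicle and FT671 against undifferentiated cells, and the subunit counts stayed at 5, 6, 0 and 8. Same-numbered libraries correlated in their deviations at -0.172 to 0.0693.

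With 3 libraries against 3, where the smallest exact permutation p is 0.1, the paralog ratios gave -1.35 for BCOR to BCORL1 with FT671, and -0.73 for RNF2 to RING1 and 1.75 for YAF2 to RYBP with differentiation, each with an adjusted p of 0.12. With 1 library left out they ran from -1.41 to -1.25 for BCOR to BCORL1 with FT671 and from -0.06 to -0.01 with differentiation. The ranges for RNF2 to RING1 were -0.70 to -0.54 with differentiation and -0.44 to -0.24 with FT671, and for YAF2 to RYBP 1.57 to 1.69 and 0.33 to 0.45.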
